A study of Mus musculus with 4 samples.

Results

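The phagocyte NADPH oxidase is described here through 5 genes of the deposited table, Cybb, Cyba, Ncf1, Ncf4 and Rac2, which were taken by their gene symbols, with earlier results of these data known. All 5 were found, each on 1 row, among 18674 gene names. Lumbar cord RNA came from wild type (WT) or G93A animals given vehicle or spermidine (SD), and each of the 4 conditions was given by 1 library. Where 4 values stand together, their order is WT with vehicle, WT with SD, G93A with vehicle, then G93A with SD. G93A mice carry a transgene of human SOD1 with a disease mutation, in a strain with high expression, and develop a motor neuron disease that models amyotrophic lateral sclerosis (ALS). By the study's methods, the mice were bred on a B6/SJLF1 background, only males entered the treatment studies, and the mice were 100 days old at collection, with PBS or SD given for the last 30 days. For the treatment studies in general, the methods give intraperitoneal SD at 5 mg/kg, 4 times a week, and name saline as vehicle. The labels record no treatment for the vehicle libraries and 30 days for every library, and how many mice stood behind a library is not given in the sources used here. No difference between conditions could therefore be set against a spread between mice, and no significance test was run. A gene was called higher or lower at a ratio of at least 1.5, the threshold used in the study.

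The phagocyte NADPH oxidase moves electrons from NADPH across a membrane to oxygen and so makes superoxide. Cybb encodes gp91phox (NOX2), the catalytic subunit, and Cyba encodes p22phox, its membrane partner, without which gp91phox is unstable. Ncf1 (p47phox) is the organizer that is phosphorylated and binds p22phox when the cell is activated, Ncf4 (p40phox) binds a phosphoinositide of the phagosome membrane, and Rac2 is a small GTPase of blood-derived and myeloid cells that joins the assembled complex. In the nervous system this oxidase is known mainly from microglia and infiltrating phagocytes.

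The level unit was RPKM, a read count divided by transcript length and by library size, inferred from the values, since the header names none. The unit is per length, so that levels of different genes can be set side by side. The estimated depth lay between 36817838 and 38612955 read pairs, and the deepest library had 1.05 times the depth of the shallowest. The tissue label was checked on fixed markers. All 8 lumbar Hox genes were above 0 in every library (Hoxc10 had 19.8, 20.2, 12.7 and 12.5 RPKM in the 4 libraries), and so were all neuronal, astrocytic and oligodendrocytic markers, such as Snap25, Gfap and Mbp. The balance of these markers differed between the genotypes. Of 10 neuronal markers, 5 were called lower in G93A cord under vehicle and 8 under SD, and Snap25 had 1268, 1292, 782 and 661 RPKM. Of 6 astrocyte markers, 4 and 5 were called higher in these pairs, and Gfap had 441, 386, 2269 and 2707 RPKM. Of the 8 Hox genes, 2 and 3 were called lower, Hoxc10 among them in both pairs, and of 6 oligodendrocyte markers 0 and 1 were called lower. What part this balance has in the oxidase results was not tested.

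The members lie on 4 chromosomes of GRCm38. The listed transcript of Cybb lies at chrX:9435252-9469324 on the minus strand, with 13 exons and 4752 bases. That of Cyba lies at chr8:122424776-122432930 on the minus strand, with 6 exons and 744 bases. Ncf1 lies at chr5:134220260-134229625 on the minus strand, with 11 exons and 2721 bases. Ncf4 lies at chr15:78244801-78262580 on the plus strand, and has 10 exons in 1464 bases. Rac2 lies on the same chromosome, at chr15:78559167-78572783 on the minus strand, with 7 exons and 3038 bases. Exons of another annotated gene overlapped the listed transcript of 1 member. Gtf2ird2, a gene of the opposite strand, covers 282 bases of Ncf1, and no source used here says that reads were counted by strand. Gtf2ird2 itself had 3.86, 3.84, 3.67 and 3.55 RPKM in the 4 libraries, so that it hardly differed between libraries. How many of the reads listed for Ncf1 came from it was not tested. Of the stretches of 53 bases, the length of a read, 0.15% of those of Ncf1 and 0.30% of those of Rac2 also occurred in a transcript of another gene, and none of the other members' did.

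Because the members were higher together in G93A cord, the sequence before the transcription start is shown for the 3 members matched in the RefSeq promoter windows of GRCm38.p6, namely Cybb, Cyba and Ncf1. Each run is the 250 bases before the start, 5′ to 3′ on the strand of the gene, at chrX:9469325-9469574, chr8:122432941-122433190 and chr5:134229626-134229875, all minus strand. The Cyba start of that table lies a few bases from the one of the listed transcript. Capitals mark matches, on either strand, to GAAANNGAA (the repeat bound by interferon regulatory factors), TGANTCA (a loose pattern for AP-1 sites, with any base at its centre), TTCNNNGAA (STAT factors) or CCAAT.
Cybb: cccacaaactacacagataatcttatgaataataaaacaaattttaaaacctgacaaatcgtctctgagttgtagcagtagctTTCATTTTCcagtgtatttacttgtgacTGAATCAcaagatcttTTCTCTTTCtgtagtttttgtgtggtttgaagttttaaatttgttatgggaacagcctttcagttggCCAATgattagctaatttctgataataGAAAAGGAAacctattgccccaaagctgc
Cyba: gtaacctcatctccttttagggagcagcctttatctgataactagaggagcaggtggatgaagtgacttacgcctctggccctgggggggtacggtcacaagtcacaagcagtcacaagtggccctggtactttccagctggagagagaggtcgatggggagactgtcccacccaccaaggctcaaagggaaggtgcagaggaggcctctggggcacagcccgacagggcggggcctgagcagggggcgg
Ncf1: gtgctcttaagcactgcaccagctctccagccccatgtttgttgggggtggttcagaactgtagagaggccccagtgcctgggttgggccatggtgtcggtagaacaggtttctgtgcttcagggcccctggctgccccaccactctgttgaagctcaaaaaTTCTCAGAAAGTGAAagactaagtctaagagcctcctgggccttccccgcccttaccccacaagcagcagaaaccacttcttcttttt
The 3 promoters differ in composition. G and C made up 34.0% of the Cybb bases and 54.4% of those of Ncf1, against a median of 52.4% over all 32851 windows, and 3.87% of all windows had a lower share than Cybb, 72.1% a lower share than Cyba. Cybb held GAAANNGAA at 3 positions, which were 167 to 159, 123 to 115 and 29 to 21 bases before the start. It also held TGANTCA at 139 to 133 bases before the start, as TGAATCA, and CCAAT at 56 to 52. The pattern TGANTCA reads the same on both strands, whereas the matched stretch does not. Ncf1 held GAAANNGAA at 82 to 74 bases before the start, overlapping TTCNNNGAA at 88 to 80. Of all windows of 300 bases (250 before and 50 after the start), 8.56% held GAAANNGAA, 7.81% TGANTCA, 8.30% TTCNNNGAA and 37.4% CCAAT, each at least 1 time. No share was computed for windows with 3 matches, or for windows as low in G and C as that of Cybb. The motif GAGGAA, the box bound by the myeloid factor PU.1, was searched too and is held by 28.3% of all windows. It was found on the other strand of Cybb, 10 to 15 bases after the start, and not in the windows of Cyba and Ncf1. GGAAGT, an ETS factor core held by 23.8% of all windows, was in none of the 3, and Cyba matched none of the 6 motifs. A match is no evidence of binding.

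The first question was how the oxidase genes differ between G93A and WT cord. All 5 members were higher in G93A than in WT cord, under vehicle and under SD, and the G93A libraries did not overlap the WT libraries for any of them. Of all 18674 names, 39.7% had both G93A libraries above both WT libraries and 28.0% had both below, so that this separation by itself is common. The ratio ran from 3.53 for Ncf1 to 88.5 for Cybb under vehicle. Of all 18674 names, 20.3% were called higher and 10.3% lower in G93A vehicle against WT vehicle, and 23.2% were called higher and 12.5% lower in G93A + SD against WT + SD. These 2 comparisons share no library, and 14.9% of all names were called higher in both. The median log2 ratio of the 5 members was 2.35 under vehicle and 3.62 under SD, beside 0.060 and 0.064 over all names above 0 in both libraries. In each pair the members' median was the ratio of Ncf4, whose WT + SD level rests on an estimated 17.1 read pairs. With 1 RPKM added to each value, the members' medians were 1.45 and 1.87. In whole cord RNA, more cells of a type and more RNA per cell cannot be told apart.

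Cybb, the catalytic subunit, showed the largest ratio of the members. Its WT levels were 0.128 RPKM with vehicle and 0.140 RPKM with SD, against 11.3 RPKM in G93A vehicle and 13.1 RPKM in G93A + SD. Both WT libraries were thus close to the bottom of the range, at an estimated 22.4 and 25.5 read pairs, against 2044 and 2401 read pairs in the G93A libraries. The log2 ratio was 6.47 under vehicle and 6.55 under SD, an 88.5-fold and a 93.4-fold difference. Only 16 of the 17173 names above 0 in both libraries had a larger ratio under vehicle, and 26 of 17215 under SD. In WT vehicle 17.8% of all names lay below Cybb, and in G93A vehicle 71.4% did. Because the WT values are so low, this ratio is the one that depends most on the pseudocount. With 1 RPKM added to each value the log2 ratio was 3.45 under vehicle.

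Cyba, the membrane partner of gp91phox, was the most abundant member in G93A cord. Its level was 2.13 RPKM in WT vehicle and 1.85 RPKM in WT + SD, and 24.3 RPKM in G93A vehicle and 26.2 RPKM in G93A + SD. The G93A libraries were 11.4-fold and 14.2-fold above their WT counterparts, with log2 ratios of 3.51 and 3.83. Its transcript is short, and about 58.4, 52.6, 687 and 753 read pairs were estimated behind these levels in the 4 libraries.

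Of the cytosolic subunits, Ncf1 had the smallest ratio and the highest WT level. Ncf1 had 2.19 RPKM in WT vehicle, 2.08 RPKM in WT + SD, 7.72 RPKM in G93A vehicle and 10.2 RPKM in G93A + SD. The log2 ratio was 1.82 under vehicle and 2.30 under SD, a 3.53-fold and a 4.93-fold difference. Ncf4, which encodes the phosphoinositide-binding subunit, was lower throughout, with 0.588 RPKM in WT vehicle, 0.305 RPKM in WT + SD, 2.995 RPKM in G93A vehicle and 3.73 RPKM in G93A + SD. Its log2 ratio was 2.35 under vehicle and 3.62 under SD. The larger ratio under SD went with the low WT + SD value, behind which only 17.1 read pairs were estimated. Rac2 had 0.701 RPKM in WT vehicle, 0.605 RPKM in WT + SD, 3.30 RPKM in G93A vehicle and 3.56 RPKM in G93A + SD. Its log2 ratio was 2.24 under vehicle and 2.56 under SD, so that it was 4.71-fold and 5.89-fold higher in the G93A libraries.

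**Figure D1:**
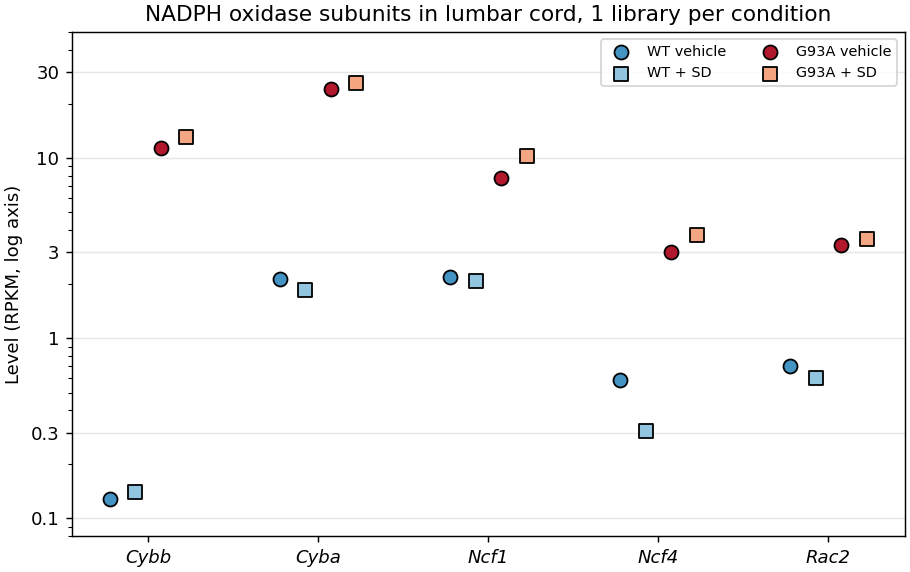
Level of each oxidase subunit (RPKM, log axis) in the 4 libraries, with circles for vehicle, squares for SD, blue for WT and red for G93A; each point is 1 library and there are no error bars. For every gene both G93A points lie above both WT points, with the widest gap for Cybb, from 0.128 and 0.140 RPKM to 11.3 and 13.1 RPKM.

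The members did not keep their proportions, and the order of their levels differed between the genotypes. In both WT libraries the order from high to low was Ncf1, Cyba, Rac2, Ncf4 and Cybb. In both G93A libraries Cyba came first, then Cybb and then Ncf1. Neighbours in these orders were often close. Ncf1 and Cyba were at 2.19 and 2.13 RPKM in WT vehicle, and Rac2 and Ncf4 exchanged the lowest place between G93A vehicle (3.30 and 2.995 RPKM) and G93A + SD (3.56 and 3.73 RPKM). Without replicates it cannot be said whether such neighbours differ. The highest member was 17.1 times the lowest in WT vehicle and 14.8 times in WT + SD, against 8.11 times in G93A vehicle and 7.35 times in G93A + SD.

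The change in proportion was carried mostly by Cybb and Ncf1. Of the summed RPKM of the 5 members, Cybb made up 2.23% in WT vehicle and 2.82% in WT + SD, but 22.8% in G93A vehicle and 23.0% in G93A + SD. The share of Ncf1 was 38.1% and 41.8% in the WT libraries and 15.6% and 18.0% in the G93A libraries. Cyba held 37.2%, 37.1%, 49.0% and 46.1% in the 4 libraries. The level of Cybb relative to its membrane partner Cyba was 0.0599 in WT vehicle and 0.0759 in WT + SD, and 0.466 in G93A vehicle and 0.4995 in G93A + SD. The RNA of the catalytic subunit was thus closer to that of its partner in G93A cord, although these are RNA levels and give no measure of protein or of the assembled enzyme. The sum of the 5 levels was 5.74 RPKM in WT vehicle, 4.97 RPKM in WT + SD, 49.6 RPKM in G93A vehicle and 56.8 RPKM in G93A + SD.

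**Figure D2:**
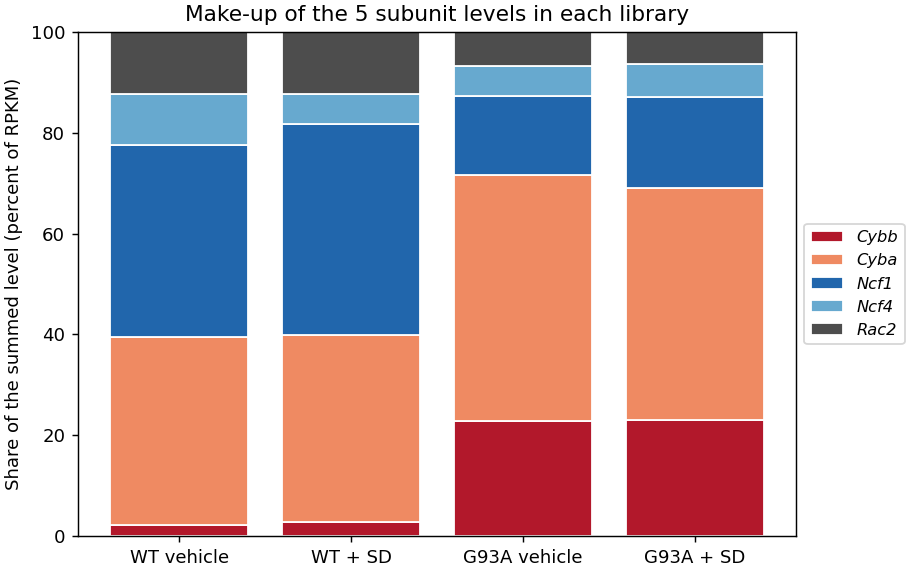
Share of each subunit in the summed RPKM of the 5 members (percent), 1 stacked bar per library. The Cybb segment grows from 2.23% and 2.82% in the WT libraries to 22.8% and 23.0% in the G93A libraries, while the Ncf1 segment shrinks from 38.1% and 41.8% to 15.6% and 18.0%.

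The second question was whether SD moved these genes within a genotype. In G93A cord all 5 members were slightly higher with SD than with vehicle, and none reached 1.5-fold, so that 0 were called. The log2 ratio was 0.41 for Ncf1, 0.32 for Ncf4, 0.21 for Cybb, 0.11 for Rac2 and 0.11 for Cyba. Of all names, 8.71% were called higher and 7.31% lower in this comparison, and 51.3% were higher by any amount. A list of microglia markers was also slightly higher in G93A + SD, with a median log2 ratio of 0.20 and 14 of 17 names higher (2 of them called). In the same comparison, 6 of 6 astrocyte markers were higher (median 0.22), 8 of 10 neuronal markers were lower (median -0.34, with 1 called) and 6 of 6 oligodendrocyte markers were lower (median -0.16). Of 13 neutrophil markers, most of them near 0, 1 was called higher and 9 lower. Their median was -0.99 over the 10 names above 0 in both libraries. The part of these differences in those of the oxidase genes was not tested.

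In WT cord 4 of the 5 members were lower with SD and Cybb was higher, and 1 member was called. Ncf4 was at 0.588 RPKM with vehicle and 0.305 RPKM with SD, a log2 ratio of -0.95 or a 1.93-fold lower level. The estimated read pairs behind it were 31.7 and 17.1, and with 1 RPKM added to each value the log2 ratio was -0.28, which is not called. The other log2 ratios were -0.21 for Cyba, -0.21 for Rac2, -0.072 for Ncf1 and 0.13 for Cybb. Of 17 microglia markers, 6 were higher with SD in WT cord and 1 was called lower, with a median log2 ratio of -0.16. The medians were -0.085 for astrocyte, -0.034 for neuronal and 0.0085 for oligodendrocyte markers. What part these differences have in the oxidase values was not tested. Of all names, 8.55% were called lower and 7.18% higher in WT + SD against WT vehicle, beside 1 of 5 members called lower. Names near 0 make up most of these calls. Among names with a mean of at least 1 RPKM over the 4 libraries, 1.36% were called lower and 0.909% higher. Ncf4, Cybb and Rac2 reach that mean only through the G93A libraries. At their WT levels these shares are therefore no measure of how common a call such as that of Ncf4 is. Of 31 fixed partners of the enzyme, 0 were called in either direction with SD in WT cord and 0 in G93A cord.

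**Figure D3:**
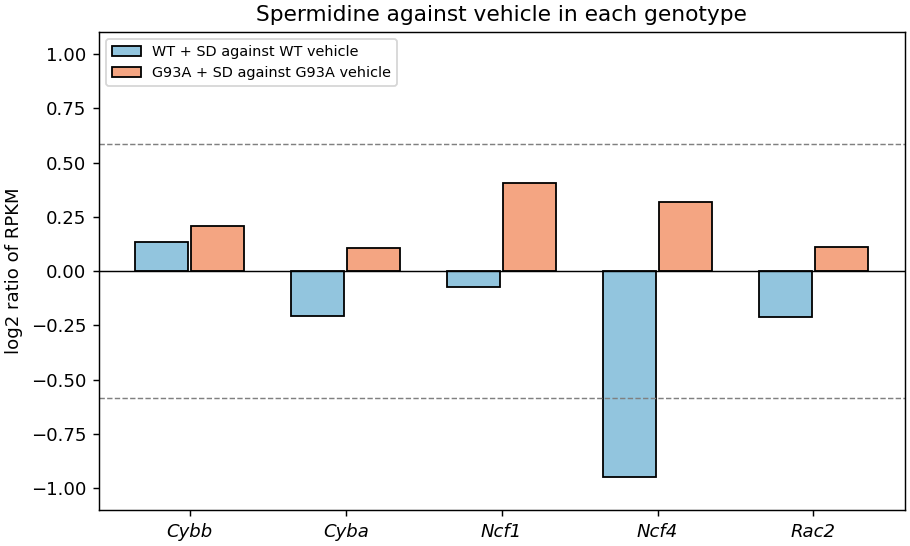
log2 ratio of RPKM with SD against vehicle for each subunit, with blue bars for WT and orange bars for G93A; dashed lines mark 1.5-fold in either direction and each bar compares 2 single libraries. All 5 orange bars lie above 0 and inside the dashed line, and the only bar that crosses a dashed line is Ncf4 in WT, at -0.95.

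The partners that complete or regulate the enzyme were followed in a fixed list of 31 names. Of these, 15 were called higher and 0 lower in G93A vehicle against WT vehicle, with a median log2 ratio of 0.52, and 14 were called higher and 1 lower in the SD pair, with a median of 0.52. The one called lower was Tiam1, a Rac exchange factor known mainly from neurons, with log2 ratios of -0.47 under vehicle and -0.60 under SD. Dock2, an exchange factor for Rac in blood cells, had log2 ratios of 2.38 and 2.91, and had 1.12, 0.879, 5.79 and 6.62 RPKM. Hvcn1, the proton channel that balances the charge moved by the oxidase, had 3.31, 3.36, 11.6 and 12.2 RPKM in the 4 libraries. Cybc1, a chaperone of the gp91phox and p22phox pair that the table lists as BC017643, was at similar levels in all libraries, with 11.8, 11.6, 13.4 and 12.7 RPKM in the same order. Its level in whole cord RNA thus did not follow that of the pair, at log2 ratios of 0.19 and 0.12. Which cells this RNA came from was not tested, so the level within phagocytes is not known. Pak1, a kinase acted on by Rac and abundant in neurons, was somewhat lower in G93A cord, at log2 ratios of -0.32 and -0.45 that are not called.

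Of the 3 Rac paralogs, Rac2 was the one called between the genotypes. Rac1, which is expressed in most cells, had 138.8, 133.6, 169.6 and 175.6 RPKM in the 4 libraries, and its log2 ratios were 0.29 and 0.39. Rac3, a paralog of neurons, had 6.55, 5.999, 5.09 and 5.80 RPKM, with log2 ratios of -0.36 and -0.048. Rac2 was therefore a minor part of the summed Rac RNA in every library. Its share was 0.480% in WT vehicle and 0.432% in WT + SD, and 1.86% in G93A vehicle and 1.93% in G93A + SD. Of the 7 fixed Rac-related GTPases, 3 were called higher under vehicle (Rac2, Rhoa and Rhoh) and 4 under SD (the same genes and Cdc42), with 0 called lower in either pair; Rhoh was named after its values were seen.

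The other NADPH oxidases were scarce. Of 9 fixed names, 5 were called higher and 1 lower under vehicle, and 4 higher and 3 lower under SD. Only Nox4 and Noxo1 reached 1 RPKM in any library, and ratios of the rest compare values near 0. Nox4, an oxidase that releases hydrogen peroxide and needs p22phox, had 0.383 RPKM in WT vehicle, 0.359 RPKM in WT + SD, 1.05 RPKM in G93A vehicle and 1.63 RPKM in G93A + SD. Its log2 ratios of 1.46 and 2.18 were in the direction of the phagocyte subunits. Noxo1, an organizer related to p47phox, had 0.990, 1.42, 1.65 and 1.77 RPKM in the same order, and was called higher only under vehicle, at a log2 ratio of 0.73 against 0.32 under SD. That difference between the pairs was not tested.

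For genes that supply NADPH, the median log2 ratio was 0.32 under vehicle and 0.58 under SD, and for genes that remove superoxide and peroxide it was 0.33 and 0.38. Of 10 genes of NADPH supply, 1 was called higher under vehicle, Idh2 (mitochondrial isocitrate dehydrogenase), with 11.1, 10.2, 18.6 and 25.4 RPKM. In the SD pair 4 were called higher, Idh2, Nadk, Me1 and Pgls, of which Me1 and Pgls were named after their values were seen. None of the 10 was called lower, and the lowest log2 ratio was -0.074 under vehicle (Tkt, transketolase) and -0.12 under SD (Me2, a malic enzyme). Of 20 genes that remove superoxide and peroxide, 7 were called higher and 0 lower under vehicle, and 8 higher and 1 lower under SD. Hmox1 (heme oxygenase 1) had the largest ratio of that list, with 3.08, 3.15, 32.5 and 36.9 RPKM in the 4 libraries. Sod2, the mitochondrial superoxide dismutase, was the one called lower under SD, with a log2 ratio of -0.67. This went with a WT + SD level of 51.6 RPKM above that of WT vehicle, 37.9 RPKM, whereas the G93A libraries had 33.6 and 32.4 RPKM. Of the 7 other oxidant enzymes of phagocytes, 3 were called higher and 1 lower under vehicle, and 4 higher and 2 lower under SD, and only Lpo and Xdh had a mean of at least 1 RPKM. Xdh (xanthine dehydrogenase) had 1.58, 1.38, 1.49 and 4.08 RPKM, so that G93A + SD stood above the other libraries. Mpo (myeloperoxidase), the enzyme of neutrophil granules, was at most at 0.050 RPKM in any library. Nos2, the inducible nitric oxide synthase, was at most at 0.173 RPKM; both were named after their values were seen.

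The receptors and kinases that act ahead of the oxidase were higher with it. All 17 were called higher in G93A cord under vehicle and under SD, with medians of 2.86 and 2.99 on the log2 scale. Clec7a (dectin 1), a receptor for fungal glucan, had 0.325, 0.191, 35.3 and 30.6 RPKM in the 4 libraries. Its log2 ratios of 6.77 and 7.33 were of the size of those of Cybb. Tyrobp, the adaptor of several such receptors, had 9.67, 7.76, 139.3 and 148.5 RPKM. Of 11 myeloid transcription factors, 9 were called higher in each pair and 0 lower, with medians of 1.85 and 2.34. Irf8 had 1.58, 1.24, 10.4 and 11.98 RPKM, and Spi1 (PU.1, listed as Sfpi1) had 1.76, 1.19, 7.44 and 7.80 RPKM. Both are known regulators of Cybb, and both had log2 ratios (2.72 and 3.28 for Irf8, 2.08 and 2.72 for Spi1) below that of Cybb.

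**Figure D4:**
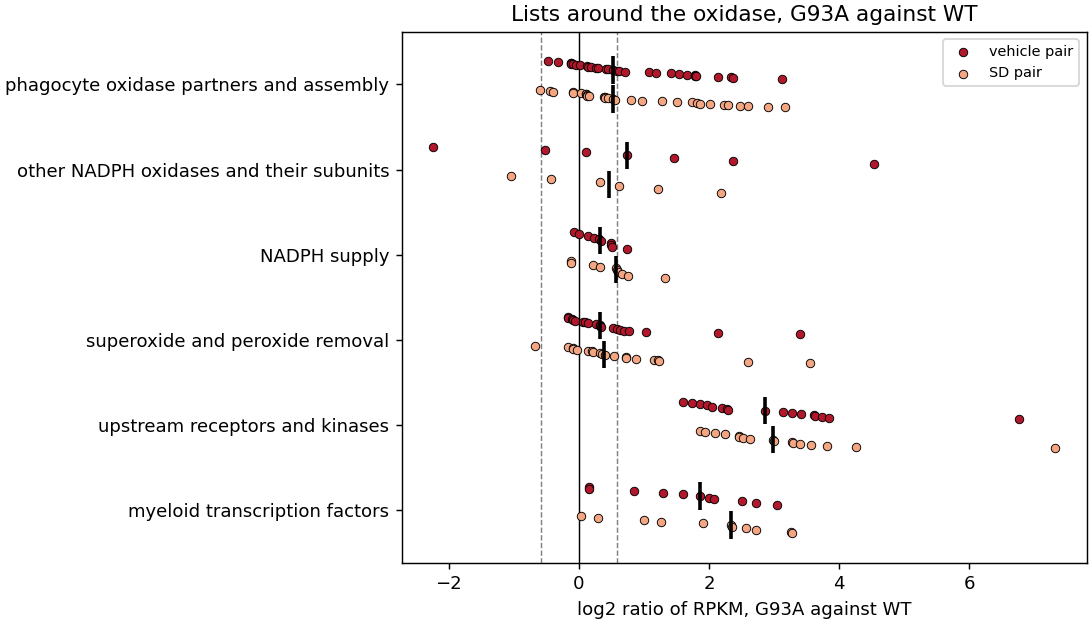
log2 ratio of RPKM in G93A against WT for the genes of 6 fixed lists, with dark points for the vehicle pair, light points for the SD pair, black ticks for medians and dashed lines at 1.5-fold; genes at 0 in either library are left out. All 17 receptors and kinases lie right of the upper dashed line, with medians of 2.86 and 2.99, while the medians of the NADPH supply genes are 0.32 and 0.58.

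Markers of microglia were higher along with the oxidase genes. Of 17 fixed microglia markers, 16 were called higher in each genotype comparison, and P2ry12, named after its values were seen, was not. Their median log2 ratio was 2.26 under vehicle and 2.72 under SD, and their summed level was 231.7 RPKM in WT vehicle, 207.4 RPKM in WT + SD, 1332 RPKM in G93A vehicle and 1464.5 RPKM in G93A + SD. None was at 0 in any library, and C1qa was among the most abundant. Without a pseudocount, Cybb exceeded the median of this list by 4.21 under vehicle and 3.83 under SD on the log2 scale, and 0 of the 17 markers had a larger ratio. This lead rests on Cybb levels of 0.128 and 0.140 RPKM in WT cord. With a pseudocount of 0.1 the lead over the median was 3.39 and 3.11. With 1 RPKM added, the log2 ratios of Cybb were 3.45 and 3.63, and its place among the markers was not computed. Cyba exceeded the median, without a pseudocount, by 1.25 and 1.11, with 2 markers above Cyba in each pair. Ncf4 differed from the median by 0.088 and 0.90, Rac2 by -0.024 and -0.16, and Ncf1 by -0.44 and -0.41, with 10 markers above Ncf1 in each pair. The place of the members other than Cybb depended on the markers chosen. Without 7 markers taken as lower in reactive microglia, the difference under vehicle was 0.56 for Cyba, -1.13 for Ncf1, -0.60 for Ncf4 and -0.72 for Rac2, and 3.52 for Cybb. In these data none of the 7 was lower in G93A cord, and all but P2ry12 were called higher in both pairs. Clec7a and Ms4a7, from other fixed lists, had log2 ratios above that of Cybb under vehicle, at 6.77 and 7.55, and under SD, at 7.33 and 6.74.

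**Figure D5:**
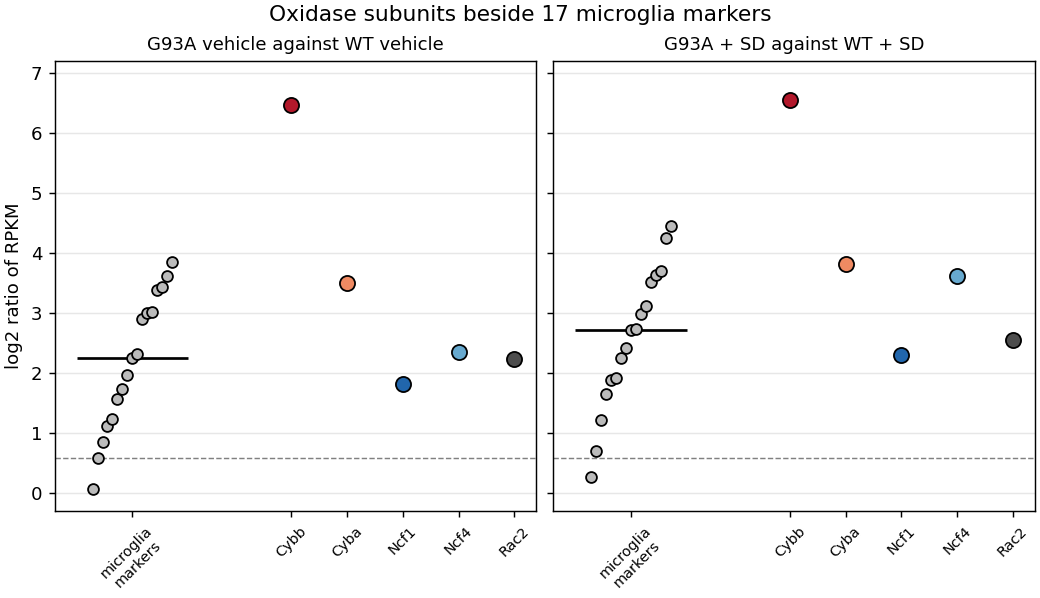
log2 ratio of RPKM in G93A against WT for 17 microglia markers (grey, ordered by value, line at the median) and the 5 oxidase subunits (colored), in the vehicle pair (left) and the SD pair (right); the dashed line marks 1.5-fold. With no pseudocount added, Cybb lies above every grey point in both panels, at 6.47 and 6.55, Cyba lies in the upper part of the grey range, and Ncf1 lies below the median.

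Markers of other phagocytes and of lymphocytes were mostly low in every library. Of 13 neutrophil markers, the 11 other than Csf3r and Mmp9 summed to 1.37 RPKM in WT vehicle, 1.21 RPKM in WT + SD, 2.86 RPKM in G93A vehicle and 1.39 RPKM in G93A + SD. Of the 13, 9 were called higher and 1 lower under vehicle, and 5 higher and 3 lower under SD. Elane (neutrophil elastase), named after its values were seen, was listed at 0 in the other libraries and at 0.013 RPKM in G93A vehicle. Csf3r, the receptor for granulocyte colony-stimulating factor, had the highest mean of these markers, with 1.48, 1.54, 11.5 and 13.1 RPKM in the 4 libraries, and Mmp9 had 2.61, 2.26, 1.30 and 0.667 RPKM. Of 10 markers of monocytes and perivascular macrophages, the 8 other than Ms4a7 and Cbr2 summed to 1.03, 1.095, 1.32 and 1.75 RPKM, and of the 10, 3 were called higher and 1 lower under vehicle, and 5 higher and 1 lower under SD. Ms4a7, which belongs to macrophages, had 0.030 and 0.071 RPKM in the WT libraries and 5.67 and 7.52 RPKM in the G93A libraries. The 5 B cell markers summed to 0.1797, 0.303, 0.615 and 0.348 RPKM, with 4 called higher and 1 lower under vehicle and 2 higher and 1 lower under SD. The 8 markers of T and NK cells summed to 0.0583, 0.342, 0.474 and 0.733 RPKM, with 7 called higher and 1 lower under vehicle and 5 higher and 2 lower under SD. Of these 8, 5 were at 0 in WT vehicle, and WT + SD against WT vehicle called 6 higher and 0 lower. Over all names, 20.3% were called higher and 10.3% lower under vehicle, and 23.2% and 12.5% under SD. A name at 0 in 1 library only was counted as called. Whether cells other than microglia contributed to the oxidase genes was not tested beyond these values.

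For each member, the genes with the most similar pattern over the 4 libraries were found among 12986 other names with a mean of at least 1 RPKM. Likeness was the root mean square difference of log2 values, each with 0.1 RPKM added and centred on its own mean, so that 0 means the same pattern whatever the level. It is a description over 4 points, in which the difference between genotypes weighs most. The names nearest to Cybb were Lilrb4 (0.072), Serpinf2 (0.13) and Ms4a7 (0.18). Those nearest to Cyba were Cxcl16 (0.063), Slamf9 (0.068) and Slc11a1 (0.084). Ncf1 was nearest to Cntf (0.024), Clic1 (0.028) and Pros1 (0.032). Ncf4 was nearest to Ugt1a6b (0.045), Ccl5 (0.062) and Samsn1 (0.065), and Rac2 to Col12a1 (0.028), Tspo (0.030) and Tmem176b (0.031). No member was among the 3 nearest names of another. The closest of the members to each other were Ncf1 and Rac2, at 0.16, and the farthest were Cybb and Ncf1, at 1.85.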

How the data were processed

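RNA-seq values of 4 libraries, 1 per condition, were used. The authors deposited 1 table of RefSeq transcripts with 1 column per library, and its values were taken as RPKM, because the total of value times transcript length was alike across libraries. Per the study's methods, reads of polyA RNA were placed on GRCm38 (STAR) and assigned to genes by HTSeq. The step to the deposited values is not given in the sources used here. The deposited ratio columns hold the authors' comparisons and were not used.

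The value of a gene name was the mean of its rows, without pseudocount or filter. A name at 0 in 1 library only counted as called. Lengths came from GENCODE M21, for 97.0% of 23750 rows. Depth was estimated from the most frequent value times length among low rows of transcripts over 500 bases, read as 1 read pair. Depth and read pairs are therefore estimates, from which no interval was derived. Of 194 fixed symbols, 193 were found, 5 of them by RefSeq accession under another name; Ly6g was not analysed here.

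The members and lists were chosen with earlier results of these data known. Named genes were the members, Cybc1, Rac1, Rac3, Nox4, Hvcn1, Spi1 and Irf8, the 2 highest and 2 lowest ratios under vehicle of each list at a mean of at least 1 RPKM, the 2 most abundant markers of each cell type, and the 3 most similar names per member; a few genes that this rule names are not reported here. Alternatives were median-ratio scaling, pseudocounts of 0.1 and 1, a mean of at least 1 RPKM, a 2-fold threshold, the row with the highest mean, and a shorter microglia list. Values were computed in Python 3.11.15 (pandas 2.3.3, numpy 2.4.6) and drawn with matplotlib 3.10.9, and the code for ratios and calls was tested on simulated data with known folds and little noise, which checks the arithmetic and says nothing of the spread between mice.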

Additional observations from a re-analysis of the deposited data

Results flagged for a closer look

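The ratio of SD to vehicle had opposite directions in the 2 genotypes for 4 members, which were lower with SD in WT cord and higher with SD in G93A cord. The log2 ratio in G93A minus that in WT was 0.32 for Cyba, 0.48 for Ncf1, 1.27 for Ncf4 and 0.32 for Rac2. With 1 RPKM added to each value, it was 0.17 for Rac2 and 0.53 for Ncf4, whose WT + SD value rests on an estimated 17.1 read pairs. The difference was not tested, since each genotype has 1 library with and 1 without SD. The same pair of directions, by any amount, was found for 22.1% of all 18674 names. The median log2 ratio of the microglia markers had these directions too. It was -0.16 in WT cord, with 6 of 17 higher, and 0.20 in G93A cord, with 14 of 17 higher.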

How the results depend on the processing

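No paired analysis was possible because the labels give no replicate numbers that match libraries across conditions. An additive model of genotype and treatment, with 1 residual degree of freedom, was not run, and leaving out a library would remove its condition. Scaling and both pseudocounts changed 60 log2 ratios of the members, of which 59 kept their direction and their side of the threshold. The row with the highest mean and the mean of at least 1 RPKM leave the ratios of the members as they are by construction, and the 2-fold threshold changes only the call. The calls that were lost were those of Ncf4 in WT + SD against WT vehicle, where 0 members were called lower with a pseudocount of 1 (log2 ratio -0.28) and with the 2-fold threshold. Under vehicle the log2 ratio of Cybb ran from 3.45 to 6.47 and that of Ncf1 from 1.45 to 1.82. The number of all names called moved more. In G93A vehicle against WT vehicle, 1552 names were higher with a pseudocount of 1, 1751 at a mean of at least 1 RPKM and 2499 at 2-fold, and 991, 355, 608 and 1022 were lower with pseudocounts of 0.1 and 1, at that mean and at 2-fold. In the SD pair, 1950 and 2113 were higher with a pseudocount of 1 and at that mean, and 1460, 782, 1054 and 1129 were lower in the 4 settings. In WT + SD against WT vehicle, 420, 50 and 118 were higher and 522, 83 and 176 lower with pseudocounts of 0.1 and 1 and at that mean. In G93A + SD against G93A vehicle, 555, 112 and 174 were higher and 476, 85 and 135 lower in these 3 settings, and 1017 were higher at 2-fold. In both genotype pairs, 1386, 1559 and 1702 names were higher with a pseudocount of 1, at that mean and at 2-fold. Against the shorter microglia list, the difference of the log2 ratio under vehicle was 0.56 for Cyba, -1.13 for Ncf1, -0.60 for Ncf4 and -0.72 for Rac2, and under SD -0.76 for Ncf1 and 0.55 for Ncf4. With a pseudocount of 0.1 it was -0.089 under vehicle and 0.58 under SD for Ncf4. Fewer names pass with a pseudocount or a higher threshold by construction, and other causes were not tested. Low values, such as those of Cybb and Ncf4 in WT cord, rest on few read pairs.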
